A study of Mus musculus with 6 samples.

Results

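The 52 genes described here carry the symbols of eukaryotic translation initiation factors, out of 55291 gene symbols counted in mouse full-grown oocytes, the large immature egg cells that hold a store of maternal mRNA. They were taken by name: symbols that begin with Eif and a digit from 1 to 6, without the suffix -ps of pseudogenes and without the eIF2 alpha kinases, Eif2s1 and Eif4enif1. The tested oocytes were Pan2 knockout (KO, 3 libraries) and were set against wild-type (WT) oocytes. PAN2 is the catalytic subunit of a deadenylase that shortens mRNA tails, and the study asked what its loss does to the maternal transcriptome. Each library was made from oligo(dT)-primed, amplified Smart-seq2 cDNA. The labels give the genotype but no strain, age, deleted exon or Cre driver, and the series text alone calls the deletion maternal. They do not state how many animals contributed, so the spread between libraries may be technical.

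The comparison used KO 1, KO 2 and KO 3 and the single library WT 1, which was assumed to vary like the KO libraries. Their counts summed to between 12038990 and 26770521 per library. The counts listed for WT 2 do not follow the gene models except on the first 90 Mb of chromosome 16, so WT 2 is given only for the members there, and WT 3 was not analysed here. Pan2 itself had 44.6, 11.9 and 34.0 CPM (counts scaled to library size with TMM factors) in KO 1, KO 2 and KO 3, against 77.6 CPM in WT 1. All KO libraries lay below WT 1, but the difference did not pass (log2 fold change -1.37, SE 0.53, edgeR adjusted p = 0.301). All 11 oocyte markers were detected in these 4 libraries, with summed levels of 25607 to 29452 CPM in KO and 29031 CPM in WT 1. The 14 granulosa and cumulus markers summed to 85.0 to 102 CPM in KO and 63.9 CPM in WT 1, and Tnfaip6 and Ptx3 had 0 counts throughout. The theca, stromal and endothelial list reached 29.0 to 29.6 CPM in KO and 16.9 CPM in WT 1, with Col1a2, Col3a1 and Cdh5 at 0. The blood list was at 1.53 to 5.14 CPM in KO and 1.38 CPM in WT 1, with all globin genes at 0. The part these other cells play in the differences below was not tested.

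Translation initiation brings a ribosome to the start codon. In this process eIF2 carries the initiator tRNA and is recharged by the exchange factor eIF2B, and eIF1, eIF1A and eIF3 hold the small subunit open for scanning. The cap-binding protein eIF4E, the scaffold eIF4G and the helicase eIF4A bring in the capped mRNA, and 4E-BP proteins block eIF4E. The factor eIF4G also binds poly(A)-binding protein, which joins the cap to the tail that PAN2 shortens. Full-grown oocytes transcribe little, and they rely on the translation and storage of existing mRNA.

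Of the 52 members, 48 passed the filter on low counts. Of these 48, 1 fell (Eif3j2), 0 rose and 47 did not pass an adjusted p of 0.05 in edgeR. Over all 17799 genes tested 1.93% were called, 1.32% higher and 0.612% lower in KO, so a count of 1 in 48 (2.08%) is near this background. Fewer cells and less RNA per cell cannot be told apart in bulk libraries. At an unadjusted p under 0.05 there were 2 members, Eif3j2 and Eif3j1 (4.17%), where 13.3% of all genes tested had such a p. The median log2 fold change was -0.02 over the members and 0.02 over all genes tested. A log2 fold change between -0.5 and 0.5 was seen for 36 of 48 members (75.0%) and for 52.0% of all genes tested. Many of the other genes are rare: among those with a mean of at least 5 CPM the figures were 35 of 45 members (77.8%) and 67.2% of genes. All KO libraries lay above WT 1 for 8 members (16.7%; 29.1% of all genes tested) and below it for 11 (22.9%; 29.2%).

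Levels are compared between genes only in TPM, counts per exon length scaled to the same total in each library. The summed counts of the 52 genes took 0.939%, 0.939% and 0.942% of all counts in KO 1, KO 2 and KO 3, and 0.948% in WT 1. The KO mean minus WT 1 was -0.00773 percentage points. An exact permutation test of 3 libraries against 1 gave a two-sided p of 0.25, the smallest that this design allows.

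**Figure D1:**
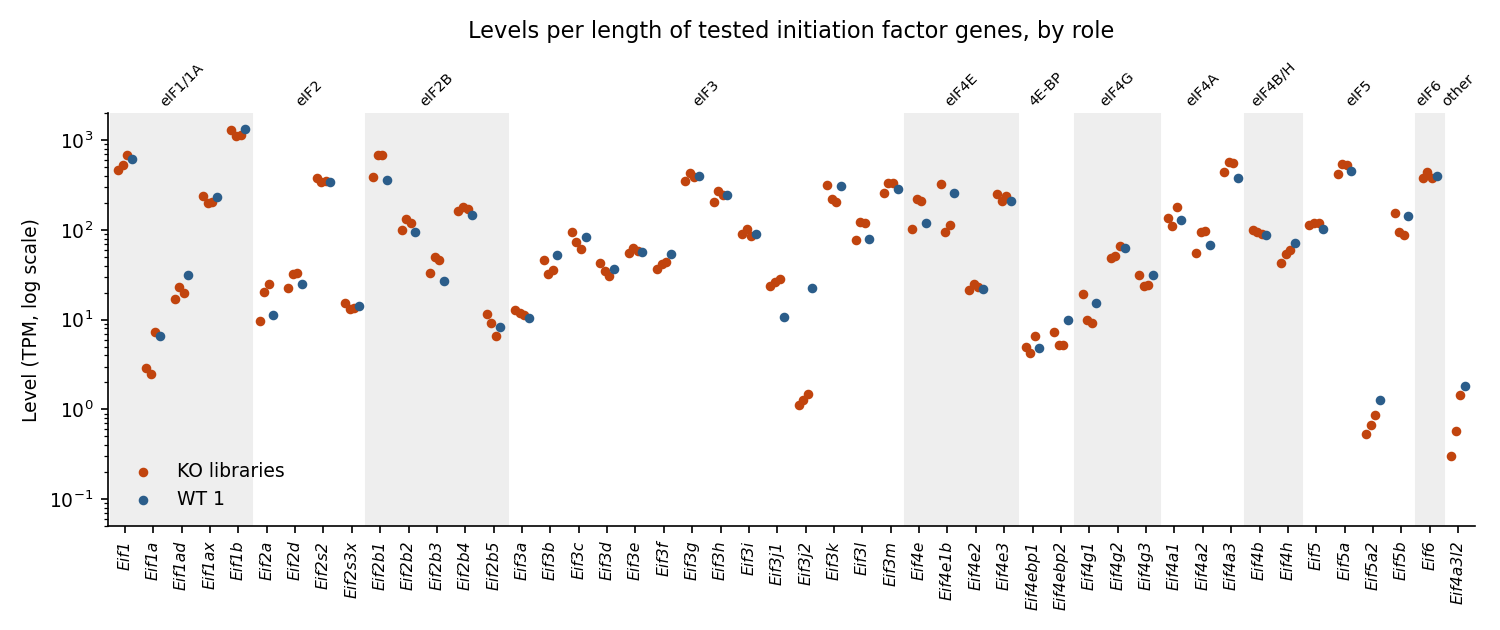
Level per length in TPM (log scale) of the 48 tested members, grouped by role, in the 3 KO libraries (red) and WT 1 (blue). Eif3j2 is the member whose KO points lie farthest from the WT point, at 1.12 to 1.48 TPM in KO and 22.5 TPM in WT 1.

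**Figure D2:**
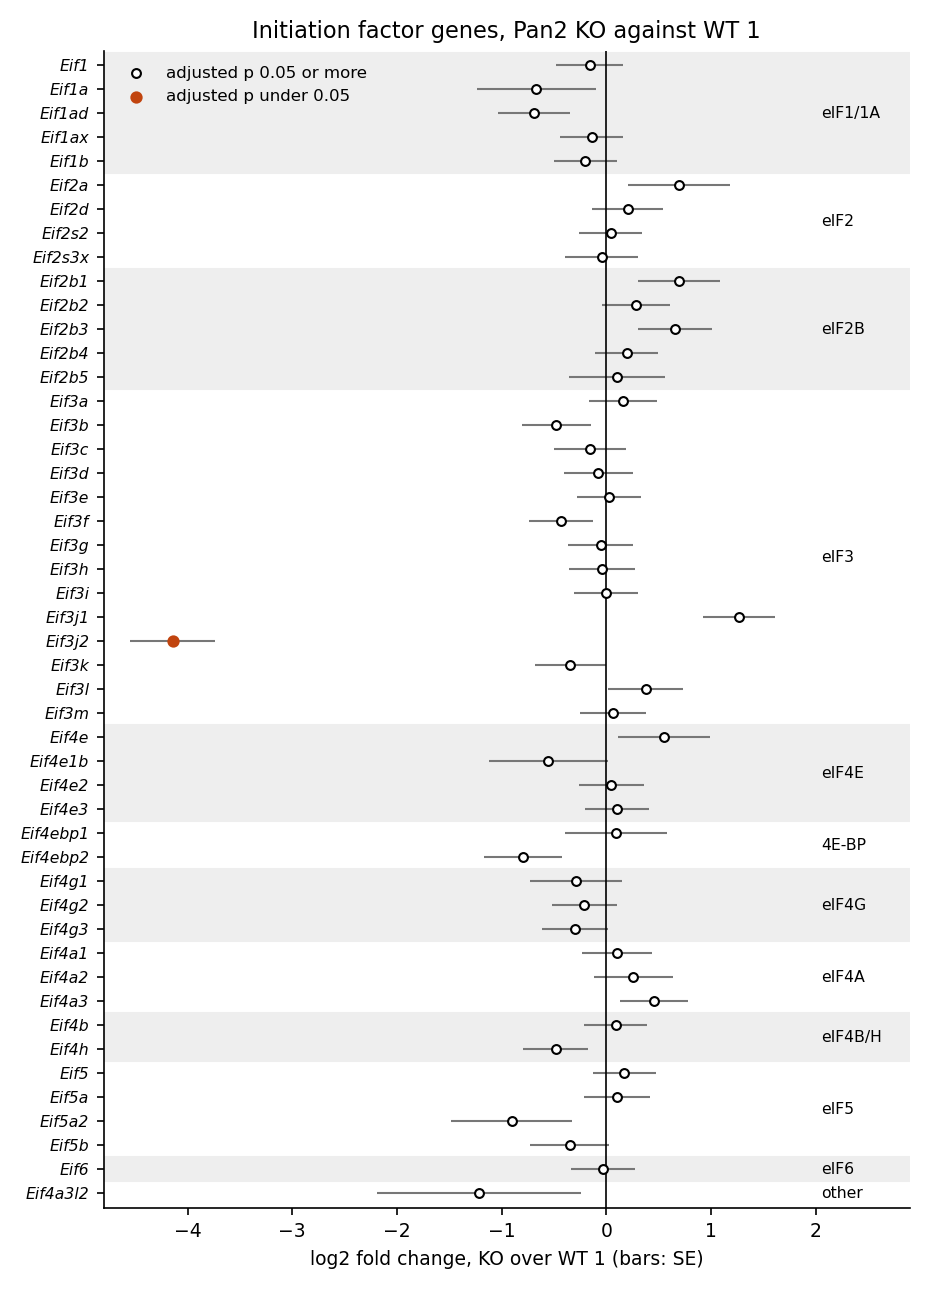
log2 fold change of each tested member, KO over WT 1, with its SE as a bar, grouped by role from eIF1 at the top. Eif3j2 at -4.14 is the filled point that passed, and Eif3j1 at 1.27 is the highest of the 47 open points.

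Among the factors that select the start codon, Eif1b and Eif1 encode closely related eIF1 proteins, and Eif1b was the most abundant member per length in each of the 4 libraries. Eif1b stood at 1302, 1118 and 1147 TPM in KO 1, KO 2 and KO 3, and at 1339 TPM in WT 1. Eif1 stood at 471, 530 and 685 TPM in KO and 613 TPM in WT 1. The KO libraries were on both sides of WT 1 for Eif1 and below it for Eif1b, by a log2 value of -0.20 (SE 0.30, adjusted p = 0.825). Of the genes for eIF1A, the X-linked Eif1ax made up 98.8%, 98.8% and 96.5% of the TPM of the pair in KO libraries and 97.2% in WT 1, the rest being the autosomal Eif1a. Eif1ad, whose protein shares the eIF1A domain, was at 19.1, 26.0 and 21.3 CPM in KO and 35.7 CPM in WT 1 (log2 fold change -0.69, SE 0.34, adjusted p = 0.429). All KO libraries lay below WT 1 for this gene, and its log2 fold change without KO 1 was -0.59. The fit without KO 1 set only KO 2 and KO 3 against WT 1. Its p-values rest on how closely these KO libraries agree and measure no variation between WT libraries. Only its log2 fold changes are therefore given for single genes. Apart from Eif2b5, the genes given one below are members that this fit called, so they are a selected set. For Eif2b2, Eif4h and Eif3f, which it did not call, the log2 fold changes were 0.38, -0.36 and -0.36. Of the exon bases of Eif1ad, 15.3% overlap Banf1 on the opposite strand, and the labels do not tell if counting was stranded.

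The eIF2 and eIF2B genes had 0 calls among 9 tested, where 1.93% of all genes were called. Eif2b1, the alpha subunit, was at 402, 719 and 684 CPM in KO 1, KO 2 and KO 3, against 371 CPM in WT 1. Eif2b3, the gamma subunit of the catalytic pair, was at 86.3, 133 and 116 CPM in KO, against 71.0 CPM in WT 1. The KO libraries lay above WT 1 for both genes, and KO 1 was the KO library nearest to it. The log2 fold changes were 0.70 (SE 0.39, adjusted p = 0.492) for Eif2b1 and 0.66 (SE 0.35, adjusted p = 0.467) for Eif2b3. With KO 1 left out they were 0.92 for Eif2b1 and 0.82 for Eif2b3. Without KO 2 they were 0.55 and 0.51, and without KO 3 they were 0.60 and 0.63. Eif2b2, the beta subunit, was at 75.0, 101 and 85.5 CPM in KO and 71.7 CPM in WT 1 (log2 fold change 0.28, adjusted p = 0.764). Eif2b4, the delta subunit, was at 167, 191 and 168 CPM in KO and 153 CPM in WT 1 (log2 fold change 0.19). Per length the eIF2B genes summed to 699, 1068 and 1035 TPM in KO and 636 TPM in WT 1, and most of this was Eif2b1, at 392, 692 and 694 TPM in KO and 359 TPM in WT 1.

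Of the eIF2 genes, Eif2s2 (eIF2 beta) was at 1028, 942 and 914 CPM in KO 1, KO 2 and KO 3 and at 934 CPM in WT 1, the log2 fold change being 0.04 (SE 0.30). The KO values lay on both sides of WT 1. Eif2a, which encodes eIF2A, an initiator tRNA carrier distinct from eIF2 alpha, was at 23.8, 50.5 and 59.0 CPM in KO and 27.5 CPM in WT 1 (log2 fold change 0.69, SE 0.49, adjusted p = 0.594). KO 1 lay below WT 1 and KO 2 and KO 3 above it, and without KO 1 the log2 fold change of Eif2a was 1.00. The libraries lay likewise for Eif2d, an initiator tRNA-binding factor of reinitiation and recycling, at 66.3, 95.6 and 92.3 CPM in KO and 73.5 CPM in WT 1 (log2 fold change 0.21). Eif2s3y, the Y-linked eIF2 gamma gene, had 0 counts in all 4 libraries, which at a floor of 3 counts allows up to 0.244 CPM in KO 1, the shallowest.

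The eIF3 complex, the large scaffold on the small ribosomal subunit, held the single call. Eif3j2 encodes the loosely attached j subunit. It had 13, 27 and 36 counts in KO 1, KO 2 and KO 3, against 515 counts in WT 1, which is 1.06, 1.21 and 1.35 CPM in KO and 21.5 CPM in WT 1. The KO libraries lay close together and far below WT 1. The level was 17.6-fold lower in KO (edgeR adjusted p = 0.000877; log2 fold change -4.14, SE 0.41).

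Eif3j1, the second gene for the j subunit, lay on the other side. Its levels were 54.5, 62.0 and 64.1 CPM in KO 1, KO 2 and KO 3, against 25.0 CPM in WT 1. All KO libraries lay above WT 1, by 2.41-fold, and the difference did not pass (log2 fold change 1.27, SE 0.34, edgeR adjusted p = 0.117; 0.0179 in DESeq2, which called 3.78% of all genes). Its log2 fold change without KO 1 was 1.34.

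These genes are near-identical copies. In mm10 Eif3j1 (ENSMUSG00000027236.8) spans chromosome 2, 122028546 to 122056598 on the plus strand, with up to 8 exons. Eif3j2 (ENSMUSG00000043424.10) is annotated on chromosome 18, 43475418 to 43477796 on the minus strand, as a protein-coding gene of 1 exon. Its transcript of 2379 bases aligned over its whole length to Eif3j1 with 99.4% identity, 4 mismatches and 10 gap positions. Of all 151-base stretches of the Eif3j2 transcript, 77.0% also occur in Eif3j1, and of those of Eif3j1, 30.2% occur in Eif3j2 and 37.7% in any other gene. A read of 151 bases from such a stretch cannot be placed by sequence alone, and the sources used here do not give how multi-mapping reads were counted. Of the exon bases of Eif3j1, 19.0% overlap Spg11 on the opposite strand, and the labels do not tell if counting was stranded. The counts of each gene are therefore uncertain.

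With the counts of both copies added together the pair had 684, 1415 and 1749 counts in KO 1, KO 2 and KO 3, against 1113 in WT 1. These are 55.5, 63.2 and 65.4 CPM in KO and 46.5 CPM in WT 1. The KO libraries were still above WT 1, and the pair did not pass (log2 fold change 0.40, SE 0.32, edgeR adjusted p = 0.650). This sum was chosen after the values had been seen. If reads that fit both copies were left out of the counts, they are missing from the sum as well. Per length, Eif3j2 made up 4.53%, 4.55% and 4.90% of the TPM of the pair in KO 1, KO 2 and KO 3, and 67.9% in WT 1. This share rests on exon lengths of 2379 bases for Eif3j2 and 5830 for Eif3j1. In counts Eif3j2 was the lower of the pair in WT 1 as well, at 515 beside 598 for Eif3j1. Of 14 other genes tested within 1 Mb of Eif3j2, 0 passed in edgeR, where 1.93% of all genes were called. The neighbour with the lowest adjusted p, Gm3650, had 0 counts in each KO library and 16 in WT 1 (adjusted p = 0.202).

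**Figure D3:**
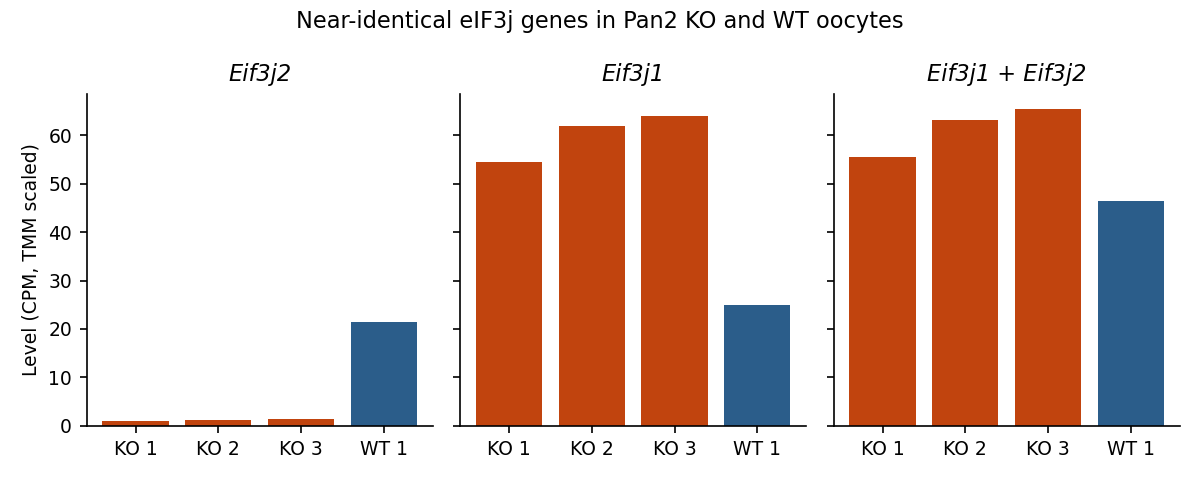
Level in CPM (TMM scaled) of Eif3j2, Eif3j1 and both added together, 1 bar per library, KO in red and WT in blue. The WT bar is the highest for Eif3j2 (21.5 CPM) and the lowest for Eif3j1 (25.0 CPM), and for the sum the KO bars reach 55.5 to 65.4 CPM beside 46.5 CPM in WT 1.

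The other 12 eIF3 subunits did not pass, and their log2 fold changes ran from -0.48 (Eif3b) to 0.38 (Eif3l). Eif3b, a core scaffold subunit, was at 62.1, 43.8 and 45.9 CPM in KO 1, KO 2 and KO 3 and at 70.3 CPM in WT 1 (adjusted p = 0.588). Eif3f was at 41.9, 49.0 and 48.4 CPM in KO and 62.7 CPM in WT 1 (adjusted p = 0.605). The KO libraries lay below WT 1 for both. Eif3l was at 111, 181 and 166 CPM in KO and 117 CPM in WT 1 (adjusted p = 0.710), with KO 1 below WT 1 and the others above it. Eif3k was at 342, 243 and 214 CPM in KO 1, KO 2 and KO 3 and at 338 CPM in WT 1 (log2 fold change -0.34, SE 0.34, adjusted p = 0.724). Without KO 1 the log2 fold changes were -0.64 for Eif3b, 0.57 for Eif3l and -0.56 for Eif3k. Levels per length were spread widely within this complex, whose subunits are held in fixed proportions as proteins. Eif3g, an RNA-binding subunit, was the highest, at 350, 432 and 393 TPM in KO and 399 TPM in WT 1. Eif3a, the largest subunit, was the lowest, at 12.7, 11.8 and 11.3 TPM in KO and 10.5 TPM in WT 1, so the ratio of highest to lowest was 27.6 to 36.5 in KO libraries and 38.0 in WT 1.

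Some initiation factor mRNAs begin with a 5′ terminal oligopyrimidine (TOP) tract, a C followed by further pyrimidines, through which mTORC1 and LARP1 control their translation in mammalian cells. Eif3e, Eif3f, Eif3h and Eif4b are known TOP mRNAs from cultured mammalian cells. None of these 4 passed, and their median log2 fold change was -0.00 with a range from -0.43 (Eif3f) to 0.09 (Eif4b); in the same comparison 1.93% of all genes were called. The windows below show where RefSeq (GRCm38.p6) places the start of those with an entry, together with Eif2s3x, the eIF2 gamma gene, whose annotated start has a tract of the same length as that of Eif3f. Each runs from 15 bases before the start to 15 bases from it on, 5′ to 3′, and capitals mark an unbroken run of at least 5 pyrimidines that opens with C at the start site.
Eif3f (chromosome 7, plus strand, 108934400 to 108934429): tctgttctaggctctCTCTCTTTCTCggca
Eif2s3x (chromosome X, minus strand, 94212637 to 94212666): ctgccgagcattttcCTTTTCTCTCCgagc
Eif4b (chromosome 15, plus strand, 102073758 to 102073787): ggtcttcccgtcggacgccgcgccaccccc
Eif3f and Eif2s3x have a run of 11 pyrimidines at the start, and Eif4b has none at its annotated start, where transcription may in life begin at another base. Such a run was found for 3 of 39 members with an entry (7.69%) and for 813 of 27025 genes (3.01%). The third member was Eif2c5, which matches by name only, is annotated as a long non-coding RNA and had 0 counts. Eif2s3x was at 23.4, 20.0 and 19.6 CPM in KO 1, KO 2 and KO 3 and at 21.7 CPM in WT 1 (log2 fold change -0.04, adjusted p = 0.973). Of its 151-base stretches, 32.8% also occur in Gm2223, so its counts are uncertain as well.

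The cap-binding family differed between libraries in its makeup while its sum varied less. The 4 eIF4E genes summed to 698, 551 and 585 TPM in KO 1, KO 2 and KO 3, and to 609 TPM in WT 1. Eif4e1b, a germ-line paralogue of eIF4E that in Xenopus oocytes sits in repressed mRNA complexes, was at 322, 96.1 and 115 TPM in KO and 256 TPM in WT 1. Eif4e, the canonical cap-binding protein, was at 102, 221 and 208 TPM in KO and 118 TPM in WT 1. KO 1 thus lay beside WT 1 for both genes, while KO 2 and KO 3 were lower for Eif4e1b and higher for Eif4e. As a share of the family, Eif4e1b took 46.2%, 17.4% and 19.6% of TPM in KO and 42.1% in WT 1. Eif4e took 14.6%, 40.1% and 35.6% in KO and 19.4% in WT 1. Against WT 1 neither passed, with log2 fold changes of -0.55 (SE 0.57, adjusted p = 0.732) for Eif4e1b and 0.55 (SE 0.44, adjusted p = 0.645) for Eif4e.

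Without KO 2 the log2 fold changes were -0.27 for Eif4e1b and 0.34 for Eif4e, and without KO 3 they were -0.32 and 0.45. In the fit without KO 1 the log2 fold changes were -1.31 for Eif4e1b and 0.83 for Eif4e. In that fit 16 of 48 members (33.3%) were called, 8 each way, and 28.1% of all genes tested, so these calls are near the background. Eif4e1b also had the widest spread among KO libraries of the members above 5 CPM, with a ratio of 3.31 between its highest and lowest KO level. KO 1 was on one side of WT 1 and KO 2 and KO 3 on the other for 15 of 48 members (31.2%), and for 25.5% of all genes tested. CT010467.1, an rRNA gene, took a share of counts of 1.49%, 0.554% and 0.565% in KO 1, KO 2 and KO 3 and of 2.47% in WT 1. Its part in these values was not tested.

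Eif4e3, an atypical cap-binding paralogue, was at 252, 209 and 239 TPM in KO 1, KO 2 and KO 3 and at 212 TPM in WT 1 (log2 fold change 0.11, adjusted p = 0.917). It made up 36.1%, 37.9% and 40.8% of the family in KO and 34.9% in WT 1. Eif4e2, the repressive paralogue 4EHP, was the least abundant, at 21.4, 25.0 and 23.1 TPM in KO and 22.0 TPM in WT 1 (log2 fold change 0.05, adjusted p = 0.967).

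The 4E-BP inhibitors were rare beside their target, at a summed 12.2, 9.53 and 11.8 TPM in KO 1, KO 2 and KO 3 and 15.0 TPM in WT 1. Eif4ebp2 was at 16.7, 12.2 and 11.5 CPM in KO and 23.3 CPM in WT 1. All KO libraries lay below WT 1, and the difference did not pass (log2 fold change -0.79, SE 0.37, adjusted p = 0.398). Its log2 fold change without KO 1 was -0.97. Eif4ebp1 was at 4.30, 3.80 and 5.54 CPM in KO and 4.26 CPM in WT 1, on both sides (log2 fold change 0.10, adjusted p = 0.958). Eif4ebp3 had 0 counts in the KO libraries and 1 in WT 1 and was not tested.

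**Figure D4:**
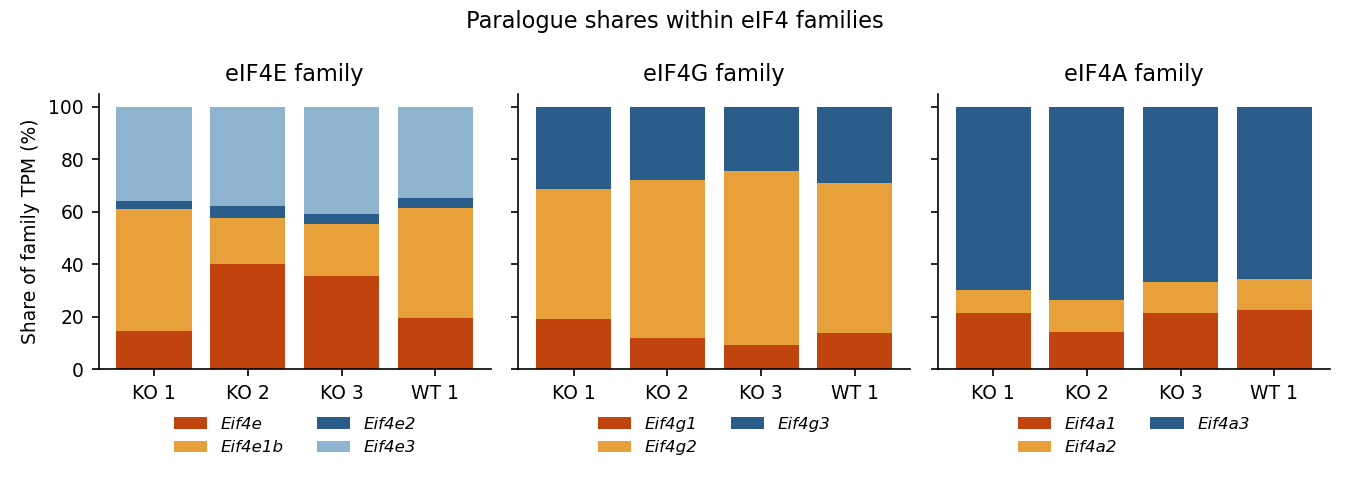
Share of each paralogue in the summed TPM of its family, in percent, 1 bar per library with KO to the left of WT. In the eIF4E family KO 1 and WT 1 have Eif4e1b shares of 46.2% and 42.1%, beside 17.4% and 19.6% in KO 2 and KO 3.

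Among the eIF4G scaffolds, Eif4g2 (DAP5, which lacks the eIF4E-binding part) was the highest per length, at 49.3, 51.2 and 65.9 TPM in KO 1, KO 2 and KO 3 and at 62.8 TPM in WT 1. Eif4g3 was at 31.4, 23.5 and 24.4 TPM in KO and 31.8 TPM in WT 1. The classical Eif4g1 was the lowest, at 19.2, 9.94 and 9.09 TPM in KO and 15.3 TPM in WT 1. The log2 fold changes were -0.21, -0.30 and -0.29 with adjusted p from 0.742 to 0.827, so 0 of 3 passed, where 1.93% of all genes were called. The size of the Eif4g1 difference turned on single libraries. Leaving out KO 1 moved its log2 fold change to -0.71. Dropping KO 2 instead gave -0.16, and dropping KO 3 gave -0.09.

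Of the eIF4A genes, Eif4a3, the helicase of the exon junction complex, was the highest, at 445, 575 and 563 TPM in KO 1, KO 2 and KO 3 and at 377 TPM in WT 1. The KO libraries lay above WT 1 (log2 fold change 0.46, SE 0.32, adjusted p = 0.596). The initiation helicases Eif4a1 and Eif4a2 were lower. Eif4a1 was at 135, 111 and 178 TPM in KO and 129 TPM in WT 1, and Eif4a2 at 55.3, 94.3 and 98.3 TPM in KO and 67.7 TPM in WT 1. Both had KO values on either side of WT 1. Their log2 fold changes were 0.10 (adjusted p = 0.929) and 0.26 (adjusted p = 0.817). The log2 fold changes without KO 1 were 0.57 for Eif4a3 and 0.48 for Eif4a2. Of the 151-base stretches of Eif4a1, 17.8% also occur in Eif4a-ps4; with both counted as 1 gene, a choice made after seeing the data, the log2 fold change was 0.15 (adjusted p = 0.886). Eif4a3l2, a gene with an Eif4a3-like name, had 2, 7 and 20 counts in KO 1, KO 2 and KO 3 and 24 in WT 1, and Eif4a3l1 had 0, 9 and 3 in KO and 2 in WT 1. The ratio of Eif4a3l2 had a log2 value of -1.22 with an SE of 0.98 (adjusted p = 0.652).

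The helicase cofactors did not pass. Eif4b was at 176, 171 and 154 CPM in KO 1, KO 2 and KO 3 and at 157 CPM in WT 1 (log2 fold change 0.09). Eif4h was at 94.4, 122 and 126 CPM in KO and 159 CPM in WT 1, with all KO libraries below WT 1 (log2 fold change -0.48, SE 0.31, adjusted p = 0.554).

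The late factors had no call with all KO libraries. Eif5a, which encodes the hypusine-bearing factor of elongation and termination, was at 417, 542 and 536 TPM in KO 1, KO 2 and KO 3 and at 455 TPM in WT 1. It made up at least 99.7% of the TPM of the Eif5a and Eif5a2 pair in each library. Eif5a2 had 13, 30 and 44 counts in KO and 61 in WT 1, which is 1.06, 1.34 and 1.65 CPM in KO and 2.55 CPM in WT 1. All KO libraries were below WT 1 (log2 fold change -0.90, SE 0.58, adjusted p = 0.554). Eif5, the GTPase-activating factor for eIF2, was at 310, 332 and 311 CPM in KO and 282 CPM in WT 1, and Eif5b, the GTPase of subunit joining, at 605, 375 and 326 CPM in KO and 554 CPM in WT 1. For Eif5b the log2 fold change was -0.35 (SE 0.38, adjusted p = 0.746), and without KO 1 it was -0.66. Of its exon bases, 16.8% overlap Rev1 on the opposite strand, and the labels do not tell if counting was stranded. Eif6, which keeps the large subunit from joining too early, was at 378, 438 and 383 TPM in KO and 402 TPM in WT 1, and its log2 fold change was -0.04 (adjusted p = 0.975, SE 0.31).

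For Eif2b5, Eif4g1 and Eif4a2, which lie on the first 90 Mb of chromosome 16, WT 2 adds a second WT value, in counts scaled to the total on that stretch. Eif4g1 (chromosome 16, 20668313 to 20692884) had 2329, 1201 and 1096 in KO 1, KO 2 and KO 3, against 1910 in WT 1 and 2934 in WT 2. The highest KO value lay between the WT values and the other KO values below both. In the fit of that stretch, which called 1.6% of 437 genes, its log2 fold change was -0.63 (edgeR adjusted p = 0.465, SE 0.39). Eif4a2 (23107444 to 23114136) had 4896, 8331 and 8661 in KO, against 6181 in WT 1 and 5979 in WT 2, so the WT values lay within the KO range (log2 fold change 0.28, SE 0.31, adjusted p = 0.747). Eif2b5, the catalytic epsilon subunit of eIF2B (20498817 to 20509323), had 495, 394 and 284 in KO, against 369 in WT 1 and 489 in WT 2 (log2 fold change -0.11, SE 0.38, adjusted p = 0.923). The sign of Eif2b5 was not stable. Its log2 fold change was 0.10 over all genes with WT 1 alone, -0.10 there without KO 1, and 0.19 on the chromosome 16 stretch with the replicate block, and it passed in none of these fits.

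**Figure D5:**
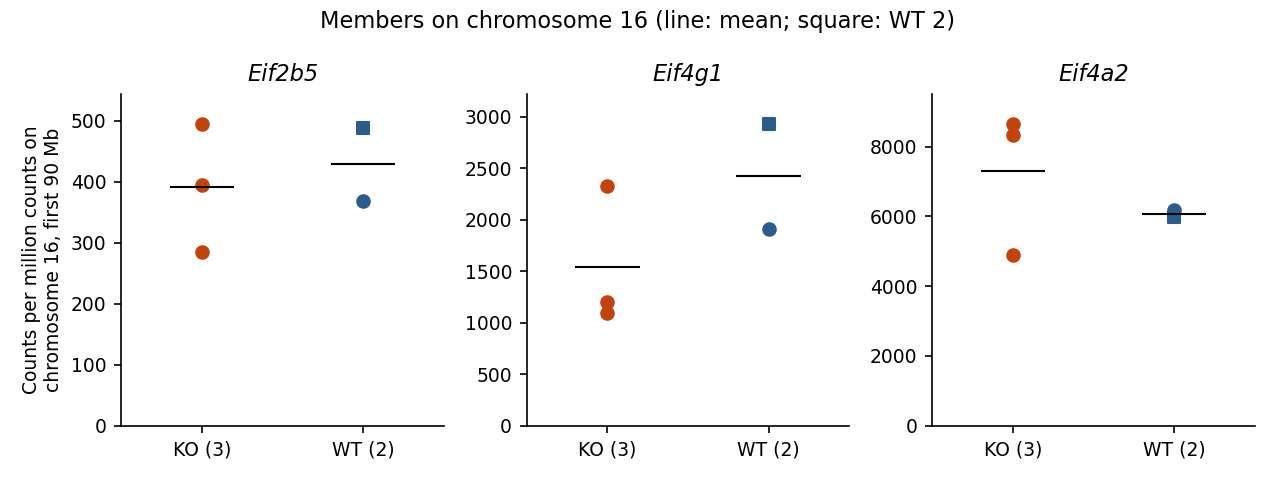
Counts scaled to the total on the first 90 Mb of chromosome 16 for the 3 members there, with KO libraries in red to the left of WT libraries in blue, a line at each mean and a square for WT 2. The groups overlap for all 3 genes.

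Other genes of the same pathway were described from lists of their own, of which 1.93% would be called at the rate of all genes. Of 14 elongation and termination factors tested 0 passed, with a median log2 fold change of -0.10 and a lowest adjusted p of 0.549. Hbs1l, a ribosome rescue factor, was at 51.2, 90.5 and 95.0 CPM in KO 1, KO 2 and KO 3 and at 50.8 CPM in WT 1, with Eefsec, the selenocysteine elongation factor, at 38.0, 60.3 and 54.2 CPM in KO and 39.2 CPM in WT 1. Eef1b2, a subunit of the eEF1 exchange factor, was at 151, 101 and 95.8 CPM in KO and 161 CPM in WT 1, and Eef2, the translocase, at 95.8, 67.6 and 70.9 CPM in KO and 98.5 CPM in WT 1. Of 15 scanning and reinitiation helpers 0 passed (median -0.12, lowest adjusted p 0.468). Abcf2 was at 74.1, 155 and 155 CPM in KO and 72.3 CPM in WT 1, and Denr, a reinitiation factor, at 70.5, 73.0 and 57.2 CPM in KO and 49.4 CPM in WT 1. Larp1, the TOP mRNA-binding repressor, was at 6.66, 3.58 and 6.69 CPM in KO and 9.20 CPM in WT 1, and Paip2b, an inhibitor of poly(A)-binding protein, at 247, 174 and 158 CPM in KO and 258 CPM in WT 1.

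Of 14 genes of mTORC1 and MNK signalling 0 passed (median -0.14, lowest adjusted p 0.144). Tsc2, a repressor of mTORC1, was at 56.9, 64.9 and 72.1 CPM in KO 1, KO 2 and KO 3, against 28.5 CPM in WT 1 (log2 fold change 1.18, SE 0.35). All KO libraries lay above WT 1. Deptor, an inhibitory partner of mTOR, was at 134, 143 and 138 CPM in KO, against 233 CPM in WT 1 (log2 fold change -0.75, SE 0.29, adjusted p = 0.286), with all KO libraries below WT 1. Mlst8, a core subunit of mTOR complexes, was at 6.58, 3.98 and 4.49 CPM in KO and 9.53 CPM in WT 1 (adjusted p = 0.408), and Rps6kb1, the S6 kinase gene, at 41.2, 58.9 and 60.1 CPM in KO and 35.7 CPM in WT 1 (adjusted p = 0.537).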

How the data were processed

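Oocyte RNA of 6 labelled samples was turned into oligo(dT)-primed Smart-seq2 libraries, per the labels' protocols, which favours mRNAs whose tails can be primed. Reads were processed by the authors with Trim Galore 0.6.7, STAR 2.7.10a and featureCounts 2.0.2 on mm10, per the submitters' processing notes. The authors' table holds unnormalised read counts for each gene beside its exon length, per the file headers. Groups came from the titles, which name full-grown oocytes where the series text speaks of embryos. KO 1, KO 2 and KO 3 were compared with WT 1 over all genes with edgeR 4.0.16 (R 4.3.3): TMM, filterByExpr, quasi-likelihood with robust=TRUE, Benjamini-Hochberg adjustment, threshold 0.05. An adjusted p in the text is from edgeR unless another tool is named. CPM used effective library sizes. TPM used the deposited exon lengths, which include exons that oocytes may not use. DESeq2 1.42.0 and limma 3.58.1 (voom) were alternatives. Only the edgeR fit was tested on simulated counts. In these WT 1 was drawn to vary like the KO libraries, so the simulation cannot check that assumption. Identifiers came from GENCODE M21, in which 50 of 52 members matched with identical coordinates. Shared 151-base stretches were counted over its transcripts, and the Eif3j copies were aligned with blastn 2.17.0. Counts carry no molecular identifiers, so the floor of 3 counts covers counting error only.

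The members and lists were chosen with earlier results of these data known. Values are given for each member of the eIF4E, 4E-BP, eIF4G and eIF4A families, the 8 lowest p each way, log2 changes of 1 or more, the highest per length of each role, Eif2s3y and members on chromosome 16, and for the 2 lowest p each way in each other list. Eif5, Eif5b, Eif2s3x, Eif2b4, Eif2d, Eif1, Eif1ax, Eif3a, Eif3k and Gm3650 were added after their values had been seen.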

Additional observations from a re-analysis of the deposited data

How the results depend on the processing

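The call of Eif3j2 held in DESeq2, limma-voom, both other scalings, no filter, a mean of at least 5 CPM, robust=FALSE, both other thresholds and without each KO library, with log2 fold changes from -4.23 to -4.06, and was lost when WT 2 was included (-7.09, adjusted p = 0.761; with a replicate block -5.94, adjusted p = 0.989). Members called numbered 2 in DESeq2 and 1 to 16 on leaving out a KO library. All genes called numbered 672 in DESeq2, 868 with no filter, 126 at a mean of at least 5 CPM, 131 and 545 at adjusted p of 0.01 and 0.1, and 425 to 4923 on leaving out a KO library. The median log2 fold change of the members was -0.0593 with library size alone and -0.0625 to 0.00997 on leaving out a KO library. With both WT libraries 0 genes and 0 members were called, and the members' median was 0.89 (all genes 0.68); with the replicate block these counts were again 0 and 0 and the median 3.21 (all genes 1.71). The KO minus WT difference in summed share was -0.0225 percentage points over named nuclear genes and 0.285 with both WT libraries, where the cause was not tested. WT 1 shares only 1 replicate number with KO, so the comparison itself could not be blocked. On chromosome 16 deviations of same-numbered libraries correlated at -0.06 and -0.12. Differently numbered libraries gave 0.12 (WT 1 with KO 2) and 0.06 (WT 2 with KO 1). The WT deviations are taken from the mean of both WT libraries and so mirror each other, and these correlations cannot decide on pairing. The block left Eif2b5, Eif4g1 and Eif4a2 at log2 fold changes of 0.19, -0.36 and 0.21. Depth limits Eif3j2, Eif5a2 and Eif4a3l2 in KO 1, at 13, 13 and 2 counts.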

Other observations

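The 10 Eif symbols with a -ps suffix, which name pseudogenes and are not members, were mostly low. Eif4a-ps4 had the most counts in each library, with 9.74, 22.4 and 24.7 CPM in KO 1, KO 2 and KO 3 and 9.28 CPM in WT 1 (log2 fold change 1.04, SE 0.54, edgeR adjusted p = 0.449). Eif3s6-ps4 had 18, 17 and 38 counts in KO 1, KO 2 and KO 3 and 54 in WT 1. The other 8 had at most 22 counts in any library, reached by Eif1-ps1.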
